A study of Mus musculus with 4 samples.

Results

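The miR-29 family was measured in synovium, the lining tissue of joints, of mice through its 3 guide strands, mmu-miR-29a, mmu-miR-29b and mmu-miR-29c, called miR-29a, miR-29b and miR-29c below. They were taken as the assays of exactly those names, with the star (passenger) strands left out, and are 3 of 750 miRNA assays. All 3 gave a Ct in every well of every pool. A microRNA (miRNA) is a short RNA that guides repression of messenger RNAs, and its Ct is the number of PCR cycles its signal needs to reach a set level. If each cycle doubles the product, 1 cycle less stands for 1 log2 unit more RNA.

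Each miRNA hairpin gives a guide strand, which is loaded into the silencing complex, and a passenger strand, which is mostly discarded. Members of the miR-29 family pair with collagen, elastin and fibrillin messenger RNAs through a shared seed near their 5′ end, and are known as restraints on extracellular matrix production in fibroblasts. The family is made from a pair of gene clusters, and miR-29b is encoded in both.

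Arthritic synovium was taken from C57BL/6J mice at day 10 of the K/BxN serum transfer model, labelled as peak inflammation, in 2 pools of 10 mice each. Non-arthritic synovium of the same strain was taken at day 0 of the model, in 2 pools of 3 mice each. In this model, serum of arthritic K/BxN mice is given to the recipients, so the disease is brought on by transferred antibodies. The labels name K/BxN serum for the day 0 pools too, without saying whether it had been given. The tissue came from the region of the ankle joint, and no sorting of cells is described in the labels. Sex and age were not given in the sources used here. Pooling leaves no value for a single mouse, and p-values measure only the spread between pools. The number of mice per pool differed with the group, and its part in a difference cannot be told apart from that of arthritis.

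The 3 guide strands were printed from RefSeq (GRCm38.p6) because they share a seed but differ elsewhere. Capitals mark the seed, bases 2 to 8 from the 5′ end.
miR-29a-3p: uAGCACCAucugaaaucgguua
miR-29b-3p: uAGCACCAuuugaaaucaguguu
miR-29c-3p: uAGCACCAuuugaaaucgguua
The 3 were the only ones with this seed among 1679 mature mouse miRNAs of the table. miR-29a-3p and miR-29c-3p differ by 1 substitution, C10U, written with the base of miR-29a first and counted from the 5′ end, and share their last 12 bases. miR-29b-3p and miR-29c-3p share their first 17 bases, and 3 substitutions follow, the first of them A18G. How far the PCR assays separate strands this alike was not stated in the labels or files used here.

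miR-29a and miR-29b-1 lie on the minus strand of chromosome 6, with hairpins at chr6:31062660-31062747 and chr6:31063023-31063093, and 275 bases between them. miR-29b-2 and miR-29c lie on the plus strand of chromosome 1, with hairpins at chr1:195037040-195037120 and chr1:195037547-195037634, and 426 bases between them. The mature miR-29b of both clusters is the same sequence, so its assay reads their sum.

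Over the whole series, 223 to 271 miRNA assays gave a Ct in the arthritic pools and 287 to 294 in the non-arthritic pools. All 3 members were read on chip A2 of panel A, so that they share the wells' loading. On panel A, 134 miRNA assays had a Ct in every pool, and their median was 12.5 and 15.9 in arthritic pools 1 and 2, and 12.6 and 12.8 in non-arthritic pools 1 and 2. Arthritic pool 2 thus stood apart with later Cts. Levels below are log2 units above the median of the assay's own panel (the median less the Ct of the assay), and a comparison of levels between assays assumes that the assays amplify alike.

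miR-29a stood lower in the arthritic pools without passing the test, and miR-29b rose there, so that 2 members of the same seed family lay on opposite sides. miR-29c lay between them, slightly above its non-arthritic level. The adjusted p-values were 0.105 for miR-29a, 0.0466 for miR-29b and 0.438 for miR-29c (limma over 209 assays, Benjamini-Hochberg). With a threshold of 0.05, 1 of 3 members was called, against 21.5% of all assays tested. Against the panel median, none of the 3 overlapped between the groups, which also held for 71.3% of the 209 assays tested. Both arthritic pools lay above the non-arthritic ones for miR-29b and miR-29c, as for 39.2% of the assays tested, and below them for miR-29a, as for 32.1%. In whole tissue, fewer cells of a type and less RNA per cell cannot be told apart.

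miR-29a had Cts of 9.39 and 9.39 in the wells of arthritic pool 1 and 11.7 and 11.8 in arthritic pool 2, against 6.06 and 7.35 in non-arthritic pool 1 and 6.61 and 8.30 in non-arthritic pool 2. Every arthritic well crossed the threshold later than every non-arthritic well. Its level was 3.15 and 4.16 in the arthritic pools and 5.93 and 5.37 in the non-arthritic pools, a change of -1.99 ± 0.79 log2 units (SE, n = 2 pools each), or 3.98-fold lower. This did not pass the test over all assays. Ranked by level among the 134 panel A assays, it held places 36 and 38 in the arthritic pools and 13 and 21 in the non-arthritic pools.

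miR-29b had Cts of 16.3 and 15.5 in arthritic pool 1 and 16.7 and 20.5 in arthritic pool 2, against 18.03 and 19.9 in non-arthritic pool 1 and 17.4 and 19.4 in non-arthritic pool 2. The raw Cts of the groups overlapped, since the wells of arthritic pool 2 lay 3.84 cycles apart. On the level scale, miR-29b stood at -3.37 and -2.68 in the arthritic pools and at -6.30 and -5.56 in the non-arthritic pools. It rose by 2.90 ± 0.77 log2 units (SE, n = 2 pools each), or 7.47-fold, where 9.57% of all assays were called higher. It held rank 91 in both arthritic pools and rank 114 in both non-arthritic pools, below the panel median in all 4. The call was lost in 11 of 19 alternative settings. Without the first listed well of arthritic pool 2 the change was 1.89 (limma adjusted p = 0.129), and without the second it was 3.79 (limma adjusted p = 0.0572). It was 2.53 without non-arthritic pool 1 (limma adjusted p = 0.355) and 3.32 without non-arthritic pool 2 (limma adjusted p = 0.401), and the settings with control RNAs are given with the references.

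miR-29c had Cts of 8.71 and 7.03 in arthritic pool 1 and 11.2 and 11.4 in arthritic pool 2, against 8.69 and 9.85 in non-arthritic pool 1 and 7.45 and 9.63 in non-arthritic pool 2. The arthritic pools lay on either side of the non-arthritic ones in raw Ct. Against the panel median its level was 4.67 and 4.58 in the arthritic pools and 3.36 and 4.28 in the non-arthritic pools. The change of 0.80 ± 0.76 log2 units (SE) did not pass. Its rank on panel A was 25 and 31 in the arthritic pools and 33 and 30 in the non-arthritic pools.

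Duplicate wells set the technical spread of these values. In both non-arthritic pools the second listed well was later than the first for all 3 members, by 1.16 to 2.18 cycles, while the median shift over chip A2 was 0.32 and 0.37 cycles. The median shift was -0.35 and 0.22 cycles in arthritic pools 1 and 2, where the members shifted by -1.68 to 3.84 cycles. Opposite shifts cancel in that median. Without regard to sign, the median gap over chip A2 was 0.49 and 1.18 cycles in non-arthritic pools 1 and 2. It was 0.41 cycles in each arthritic pool.

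**Figure D1:**
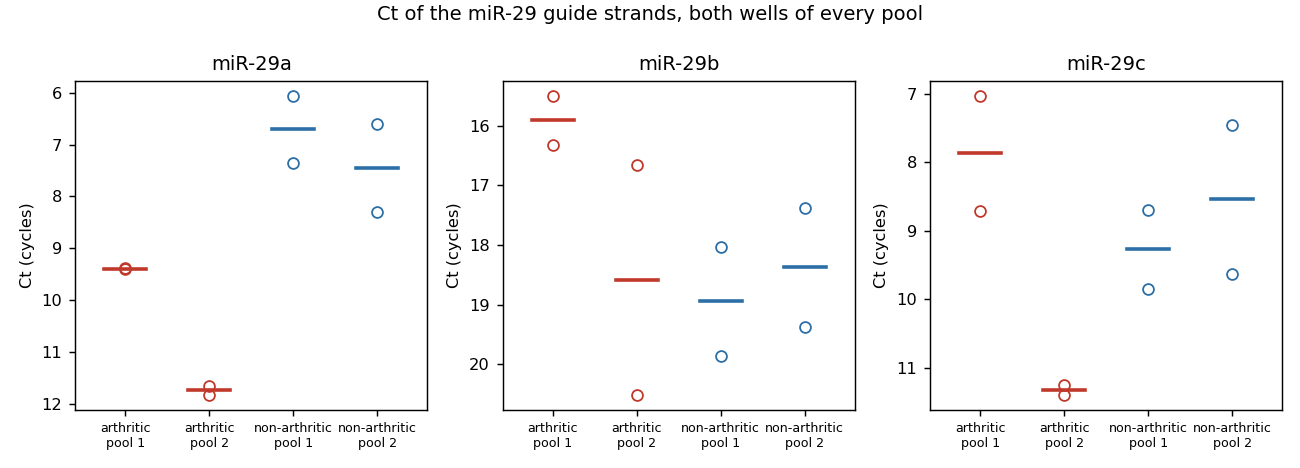
Ct of miR-29a, miR-29b and miR-29c in both wells (circles) of each arthritic and non-arthritic pool, with the pool mean as a bar; the y axis is in cycles and is inverted, so that more RNA lies higher. All arthritic wells of miR-29a lie below all non-arthritic wells, and the wells of miR-29b in arthritic pool 2 lie 3.84 cycles apart.

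In the authors' deposited table, miR-29a had a log2 difference of -2.03 and miR-29c one of 0.56 between day 10 and non-arthritic averages. It held no entry under the name of the miR-29b assay. The normalization behind that table was not stated in the labels or headers.

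Because the 3 assays share a chip, their Cts can be set against each other within a pool, which needs no reference RNA. This cancels the loading of the pool if the assays amplify alike, which was not tested. The level of miR-29b relative to miR-29a was -6.52 and -6.85 log2 units in arthritic pools 1 and 2, and -12.2 and -10.9 in non-arthritic pools 1 and 2. The gap between the strands was thus narrower in both arthritic pools. The mean was -6.68 ± 0.23 in the arthritic pools and -11.6 ± 0.93 in the non-arthritic pools (SD, n = 2 pools each), so that miR-29b stood 4.89 log2 units, or 29.7-fold, higher relative to miR-29a in arthritic synovium. With arthritic pool 2 reduced to its second listed well the change was 3.97, and reduced to its first it was 5.81. It was 4.24 and 5.55 without non-arthritic pools 1 and 2. Taken well by well in the listed order, the difference ran from -8.68 to -5.01 in the arthritic wells and from -12.5 to -10.8 in the non-arthritic wells.

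miR-29a and miR-29c, which differ by a single base, stood in opposite order in the groups. The level of miR-29a relative to miR-29c was -1.52 and -0.42 log2 units in the arthritic pools, below it in both, and 2.56 and 1.09 in the non-arthritic pools, above it in both. The mean difference was -0.97 ± 0.78 in the arthritic pools and 1.83 ± 1.04 in the non-arthritic pools (SD, n = 2 pools each), a change of -2.80 log2 units. Without 1 pool at a time it ran from -3.53 (without non-arthritic pool 2) to -2.06 (without non-arthritic pool 1). All 4 arthritic wells had miR-29c ahead, between -2.36 and -0.40, and all 4 non-arthritic wells had miR-29a ahead, between 0.85 and 2.63. Which of the strands is the more abundant depends on equal efficiency of the assays. The size of the change between groups assumes it too, since assays of unequal efficiency would not fully cancel the loading of a pool.

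miR-29b relative to miR-29c was -8.04 and -7.26 log2 units in the arthritic pools and -9.67 and -9.83 in the non-arthritic pools, a change of 2.10 log2 units or 4.28-fold. Without the first listed well of arthritic pool 2 it was 1.17, and without the second 3.02 log2 units. By wells, the lowest arthritic value was -9.11 and the highest non-arthritic one -9.34, so that the groups nearly met.

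None of the 3 differences overlapped between the groups. The same held for 74.8% of the 8911 pairs of panel A assays, whose median change in size was 2.90 log2 units. The exact two-sided permutation test gave p = 0.333 for each of the 3 pairs, also after adjustment over them, which is the smallest p that 2 pools against 2 allow.

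**Figure D2:**
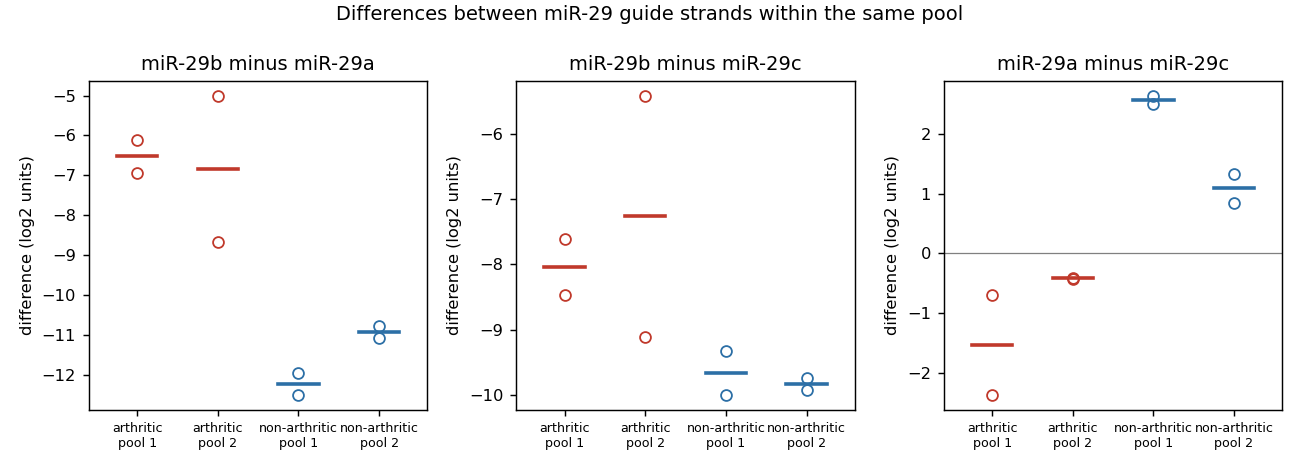
Difference between pairs of miR-29 guide strands (first minus second, log2 units) in the wells (circles) of each pool, with the pool mean as a bar; arthritic pools are on the left. miR-29b lies closer to miR-29a in the arthritic pools (means of -6.52 and -6.85) than in the non-arthritic pools (-12.2 and -10.9), and the difference between miR-29a and miR-29c lies below 0 in the arthritic and above 0 in the non-arthritic pools.

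If the assays amplified alike, the shares of the summed miR-29 signal would be as follows. miR-29a would make up 25.8% and 42.7% in the arthritic pools and 85.5% and 68.01% in the non-arthritic pools. miR-29c would make up 73.96% and 56.97% in the arthritic pools and 14.5% and 31.96% in the non-arthritic pools. miR-29b would stay below 1 part in 100 throughout, at 0.280% and 0.371% in the arthritic pools and 0.0178% and 0.0351% in the non-arthritic pools. The sum, which counts every strand with the shared seed, stood at 5.11 and 5.39 log2 units above the panel A median in the arthritic pools and at 6.15 and 5.92 in the non-arthritic pools. It differed by -0.79 log2 units between the groups (exact two-sided permutation p = 0.333, the smallest possible). The sum was set against this median alone, whose Ct differed by 1.49 cycles between the groups, against -1.36 for U6 on panel A. Its fall would thus be larger against U6. The precision of these shares was not estimated, since it depends on the unknown efficiencies.

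The direction of single members depended on the reference. U6 and the small nucleolar RNAs snoRNA135 and snoRNA202 are stable nuclear RNAs often used as references. On panel A, U6 had Cts of 5.78 and 5.67 in the arthritic pools and 7.61 and 6.56 in the non-arthritic pools. snoRNA135 was also earlier in the arthritic pools, at 18.6 and 19.6 against 22.004 and 22.5, while snoRNA202 was later, at 9.41 and 9.45 against 9.21 and 8.19. The controls thus did not move together. On panel B, read from the same pools, the mean Ct of U6 differed by -0.10 cycles between the groups, against -1.36 on panel A.

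Against U6, the change was -4.85 ± 1.80 log2 units for miR-29a (SE, limma adjusted p = 0.0321), 0.045 ± 1.80 for miR-29b (limma adjusted p = 0.989) and -2.05 ± 1.80 for miR-29c (limma adjusted p = 0.430). miR-29a then passed as lower, miR-29b did not pass, and the sign of miR-29c turned. The fit with U6 gave the 3 strands a common SE drawn from all assays together, which does not measure the spread of each strand's own pools. By pool, miR-29a stood at -3.61 and -6.07 log2 units against U6 in the arthritic pools and at 0.90 and -0.89 in the non-arthritic pools. miR-29b overlapped between the groups, at -10.1 and -12.9 (arthritic) and -11.3 and -11.8 (non-arthritic). Against snoRNA135 alone, miR-29b stood at 2.69 and 1.03 log2 units in the arthritic pools and 3.06 and 4.09 in the non-arthritic pools, so that its sign turned, with a change of -1.71. Against snoRNA202 alone its change was 2.14. miR-29a also passed as lower with the 2 snoRNAs, at -4.68, and with all 3 controls, at -4.73. The other assays shifted along, since the median change of the 209 assays was -2.51 with U6 and 0.19 with the panel median. With U6, 1 assay passed as higher and 54 as lower, against 20 and 25 with the panel median. These counts were 3 and 47 with all 3 controls, 4 and 54 with the 2 snoRNAs, and 0 and 8 in raw Ct. Relative to that median, miR-29a stood at -2.34 with U6 and -2.18 with the panel median, miR-29b at 2.55 and 2.71, and miR-29c at 0.46 and 0.62. The order of miR-29b above miR-29c above miR-29a was the same with every reference tried, since 1 reference value per pool shifts all 3 alike.

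**Figure D3:**
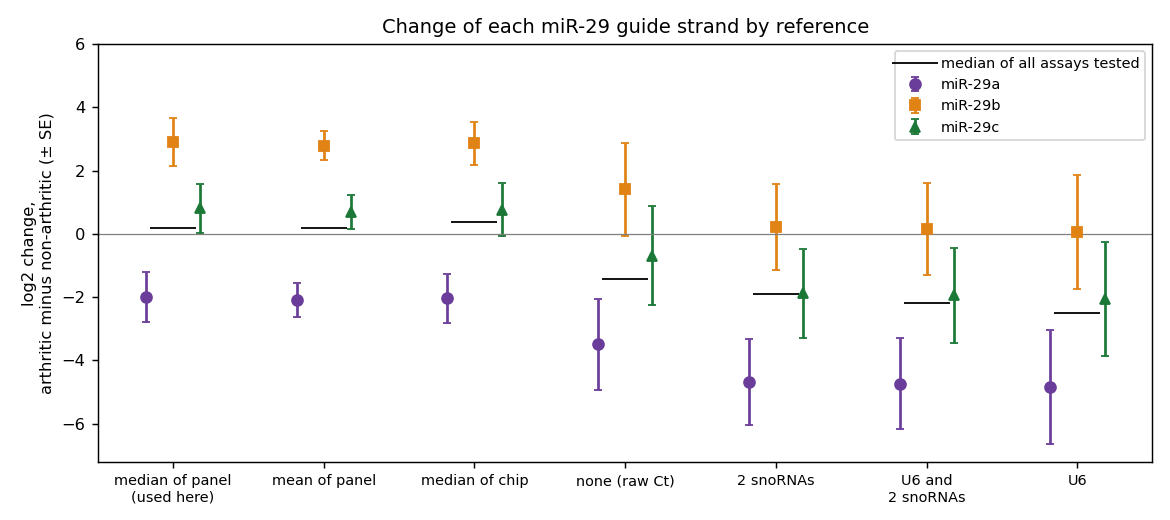
Change of miR-29a, miR-29b and miR-29c between arthritic and non-arthritic pools (log2 units, arthritic minus non-arthritic, bars ± SE, n = 2 pools each) with 7 references; black lines mark the median change of all 209 assays. miR-29b lies above and miR-29a below that median with each reference, while the sign of miR-29c depends on the reference.

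Of the passenger strands, 5 assays were on panel B, and 2 gave a Ct in all 4 pools. For reference, the mouse passenger strands in RefSeq (GRCm38.p6) are given with bases 2 to 8 in capitals, since they do not share the guide's seed.
miR-29a-5p: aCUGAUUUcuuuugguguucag
miR-29b-1-5p: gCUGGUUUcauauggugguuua
miR-29b-2-5p: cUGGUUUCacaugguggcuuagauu
miR-29c-5p: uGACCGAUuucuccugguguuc
The mouse-named assay of miR-29b# does not say which of the miR-29b genes it reads, and the assays of miR-29a# and miR-29c# carry human and rat names. A # marks a passenger strand in the assay names.

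Both passenger strands that could be tested fell in the arthritic pools. miR-29b# had Cts of 24.004 and 24.8 in arthritic pool 1 and a Ct in 1 of 2 wells of arthritic pool 2, at 26.9, close to the highest Ct of the series, 26.997. In the non-arthritic pools its Cts were 20.999 and 18.6, and 20.6 and 20.8. Its level was -7.89 and -8.53 in the arthritic pools and -4.29 and -5.05 in the non-arthritic pools, a change of -3.54 ± 0.77 log2 units (SE, limma adjusted p = 0.0301). Its guide strand had moved the other way against the panel median, but changed by 0.045 log2 units with U6 and by -1.71 against snoRNA135.

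miR-29a#, read by a human-named assay, had Cts of 19.4 and 19.2 in arthritic pool 1 and 25.8 and 24.1 in arthritic pool 2, against 15.1 and 15.5 in non-arthritic pool 1 and 15.9 and 15.4 in non-arthritic pool 2. The level was -2.75 and -6.54 in the arthritic pools, which lay far apart, and 0.25 and 0 in the non-arthritic pools, where it was itself the median assay of panel B in pool 2. The change was -4.78 ± 1.31 log2 units (SE, limma adjusted p = 0.0492), and -3.10 without arthritic pool 2. Over all assays, 12% were called lower. The call of miR-29a# was lost in 11 of 18 alternative settings and that of miR-29b# in 7 of 17, all with the same sign.

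The rat-named assay of miR-29c# gave no Ct in an arthritic well, against 26.9 and 25.5 in non-arthritic pool 1 and 25.6 and 25.04 in non-arthritic pool 2. So close to the highest Ct, a well without one does not show a lower level. The rat-named assay of miR-29b-1# and the human-named assay of miR-29b-2# gave no Ct in any of the 8 wells.

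Guide and passenger were read on different panels, so that their difference depends on the references of both. Against the panel medians, miR-29b stood above miR-29b# by 4.52 and 5.85 log2 units in the arthritic pools, and the difference was -2.02 and -0.50 in the non-arthritic pools. The groups did not overlap, which also held for 74.8% of the pairs within panel A, and no share was computed across panels. The change was 6.44 log2 units. It was 5.56 with U6 of each panel and 6.82 in raw Ct. miR-29a stood above miR-29a# by 5.90 and 10.7 log2 units in the arthritic pools and 5.67 and 5.37 in the non-arthritic pools, a change of 2.78 that was 1.90 with U6 of each panel and 3.16 in raw Ct. Arthritic pool 1 lay close to the non-arthritic pools, and arthritic pool 2 far above them. The exact two-sided permutation p was 0.333 for each, the smallest possible. These differences were not computed with the snoRNAs. The mean Ct of snoRNA135 differed between the groups by -3.12 cycles on panel A and -0.15 on panel B. For snoRNA202 it differed by 0.74 and 2.64 cycles. Either snoRNA would thus make both changes smaller than in raw Ct.

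**Figure D4:**
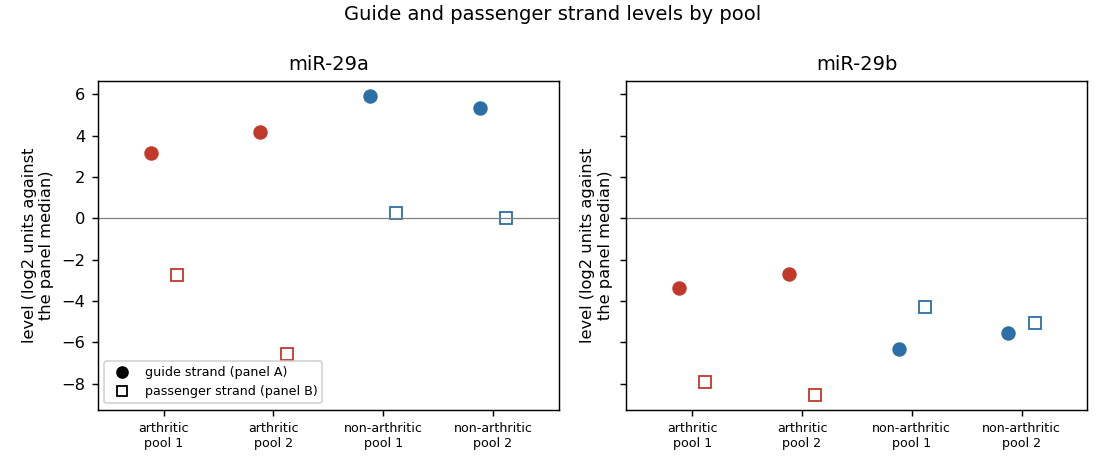
Levels (log2 units against the panel median) of guide strands (filled circles, panel A) and passenger strands (open squares, panel B) of miR-29a and miR-29b in each pool. The passenger strands lie lower in the arthritic pools, and for miR-29b the guide lies 4.52 and 5.85 units above it there.

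Among all 209 assays, the change of miR-29b ranked 63rd by size, that of miR-29a 105th and that of miR-29c 164th. The passenger strands moved more, miR-29a# at rank 21 and miR-29b# at rank 39. The median size of change over all assays was 1.99 log2 units, the same as that of miR-29a, which was itself the assay in the middle by size. Ordered by sign from the largest fall, miR-29a# was at place 13, miR-29b# at 23, miR-29a at 56, miR-29c at 126 and miR-29b at 181.

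**Figure D5:**
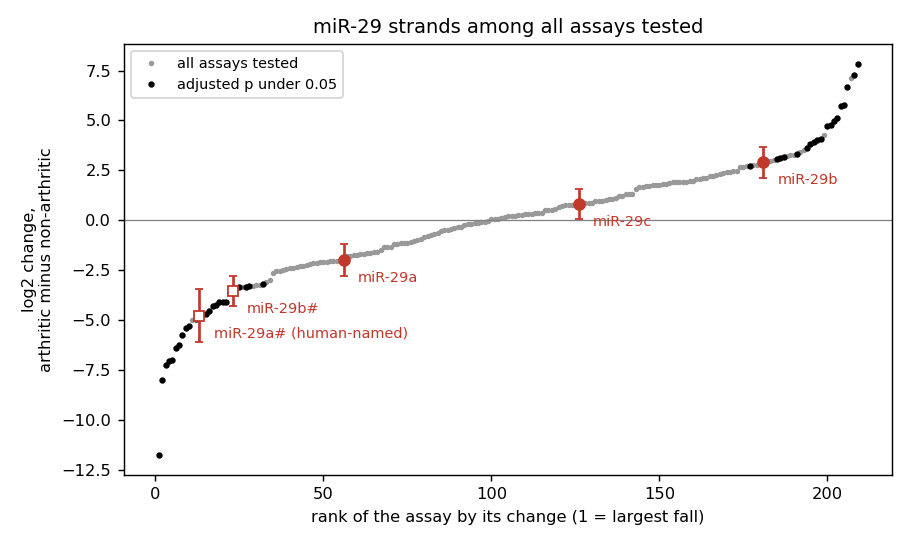
Log2 change (arthritic minus non-arthritic) of the 209 assays tested, ordered from the largest fall to the largest rise, with miR-29 guide strands as filled circles and passenger strands as open squares (bars ± SE). miR-29b at 2.90 is at place 181, miR-29c at 0.80 at place 126 and miR-29a at -1.99 at place 56, and the passenger strands lie nearer the largest falls, at places 13 and 23.

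The assays most like each member over the 4 pools were found by the root mean square difference of the levels, each centred on its own mean. For miR-29a these were miR-1839-3p (0.17 log2 units), miR-182 of the miR-183 cluster (0.38), and miR-744 (0.39), with a median of 1.58 over 208 assays. For miR-29b they were miR-181a, a miRNA of lymphocyte signalling (0.30), miR-18a#, a passenger strand of the miR-17-92 cluster (0.31), and miR-25 of the miR-106b cluster (0.34), with a median of 1.61. For miR-29c they were miR-203, known from epidermis (0.16), miR-30b (0.19) and miR-27b (0.20), with a median of 1.30. The nearest member to miR-29a was miR-29c, at 1.54 and rank 98 of 208. The nearest to miR-29b was miR-29c too, at 1.09 and rank 58. With 4 pools these distances are descriptions.

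Other miRNAs linked to fibrosis or matrix gave a mixed picture. Of 39 listed, 29 could be tested; 3 of them rose and 2 fell, while 24 missed the threshold, or 17.2% called against 21.5% of all assays. The median log2 change was 0.34, against 0.19 over all assays. let-7f of the let-7 family and miR-19a and miR-18a of the miR-17-92 cluster rose, by 6.66 ± 0.99, 4.98 ± 1.01 and 3.17 ± 0.74 log2 units (SE). miR-133a, a muscle miRNA, and miR-30e, one of a family linked to connective tissue growth factor, fell, with -7.07 ± 0.78 and -4.94 ± 0.78 log2 units (SE). miR-21, the best known profibrotic miRNA, was at 2.95 ± 0.89 and did not pass (limma adjusted p = 0.0651).

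Marker miRNAs of several cell types were set beside the members. Of 4 fibroblast miRNAs, 3 were tested and 0 passed. Their summed level was 6.66 and 6.23 log2 units in the arthritic pools and 4.83 and 4.02 in the non-arthritic pools. miR-214 and miR-199b were higher without passing, at 2.32 ± 0.85 and 1.68 ± 0.92 log2 units (changes, SE), while miR-199a-3p was at -0.69 ± 1.25. miR-199a-5p gave a Ct in 1 arthritic pool and in 0 non-arthritic pools. Of 4 skeletal muscle miRNAs, miR-1 and miR-133b gave no Ct in an arthritic well, and the summed level of the other 2 was 6.996 and 6.17 in the arthritic pools and 9.07 and 10.3 in the non-arthritic pools. Of these 2, miR-133a fell and miR-206 did not pass. Of 3 myeloid miRNAs, miR-142-3p rose by 3.83 ± 0.97 log2 units (SE), miR-223 did not pass and miR-142-5p was not tested, and the summed level of the tested ones was 5.36 and 6.76 in the arthritic pools and 4.35 and 4.08 in the non-arthritic pools. Both endothelial miRNAs, miR-126-3p and miR-126-5p, were tested and did not pass, with a summed level of 6.68 and 7.21 in the arthritic pools and 9.12 and 9.51 in the non-arthritic pools. Of 3 liver miRNAs, miR-122 gave no Ct in any pool, miR-194 gave one in 0 arthritic and 2 non-arthritic pools, and miR-192 was at 0.22 ± 0.77 log2 units (change, SE) and did not pass. Of 3 neuronal miRNAs, miR-124 and miR-9 gave no Ct in any pool, and miR-128a gave one in 1 arthritic and 2 non-arthritic pools. The sums join levels that are each against the median of the assay's own panel. The part of these cell types in the values of miR-29a, miR-29b and miR-29c was not tested.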

How the data were processed

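Total RNA of each pool was turned into cDNA (TaqMan reverse transcription, per the labels' protocols). The authors deposited Ct values as the BioMark instrument gave them, per the file headers, for 750 miRNA assays and 12 control positions on 8 chips, with 2 wells per pool. A value of 999 was read as no Ct. 2083 of 6096 wells had one, from 2.50 to 27.0. The authors' deposited table of log2 averages and of the fold ratio was used only for comparison.

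Wells were averaged, and assays with a Ct under 35 in at least 1 well of every pool were tested, 134 on panel A and 75 on panel B. Levels were the median Ct of these assays per pool and panel minus the Ct. Groups were compared with limma 3.58.1 (lmFit and eBayes in R 4.3.3, without a block, two-sided) with Benjamini-Hochberg adjustment at 0.05. The fit was tested on simulated normal data with planted changes. Those data held no shift of the reference and no gap between duplicate wells, so they do not test these limits. Precision was limited by 2 pools per group, with a median SE of 0.87 log2 units, and by duplicate wells, with an SD of 0.761 and 1.47 cycles in arthritic pools 1 and 2 and 0.883 and 1.04 in non-arthritic pools 1 and 2. Named miRNAs were the members, all other miR-29 assays, the control RNAs, the 3 assays most like each member, and passing members of a fibrosis-linked list. A list member without a mouse-named assay was matched to the human-named one. Members, lists and alternatives were chosen with earlier results of these data known. The omission of either well of arthritic pool 2 on chip A2, and the alternatives for the passenger strands, were added after seeing the data. Sequences and gene positions are RefSeq's (GRCm38.p6), matched for 3 of 3 members. Python 3.11.15 with matplotlib 3.10.9 made the figures. The marker lists of lymphocytes, red cells, liver, neurons, cartilage and smooth muscle had 1, 1, 1, 0, 2 and 2 members tested, of which 1, miR-143 of smooth muscle, passed, as lower. A human-named assay of miR-143 on panel B, outside the list, was at -2.06 log2 units and did not pass (limma adjusted p = 0.0936).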

Additional observations from a re-analysis of the deposited data

How the results depend on the processing

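The miR-29b call held in 8 of 19 alternatives and its sign in all 19, though not against snoRNA135 alone (-1.71), which was not among them. It was lost with raw Ct (1.41), U6 (0.045), U6 and the 2 snoRNAs (0.16), the 2 snoRNAs (0.22), the chip median (2.86, limma adjusted p = 0.0548), the lower Ct of the wells (2.99), an ordinary linear model (2.90), and without the first or second well of arthritic pool 2 on chip A2 (1.89 and 3.79). miR-29a passed with U6 (-4.85), U6 and the 2 snoRNAs (-4.73) and the 2 snoRNAs (-4.68), and was below 0 in all 19. miR-29c was below 0 with raw Ct (-0.69), U6 (-2.05), U6 and the 2 snoRNAs (-1.94) and the 2 snoRNAs (-1.88). Leaving out 1 pool gave -2.22 to -1.44 for miR-29a, 2.53 to 3.32 for miR-29b, whose call was lost without either non-arthritic pool (2.53 without pool 1, 3.32 without pool 2), 0.35 to 1.38 for miR-29c (1.38 without arthritic pool 2, 0.35 without non-arthritic pool 1), and 0 to 121 for the count of changed assays (121 and 97 without arthritic pools 1 and 2, and 0 without either non-arthritic pool, where 42 and 25 had an unadjusted limma p under 0.05). That count, 45 in the fit used, was 8 with raw Ct, 25 with the panel mean and 0 with ordinary linear models (55 at an unadjusted p under 0.05).

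The change of miR-29b against miR-29a was 5.80 with the lower Ct of the wells, 3.97 without the first and 5.81 without the second well of arthritic pool 2 on chip A2, and 4.24 to 5.55 without 1 pool. Against miR-29c it was 2.69, 1.17 and 3.02 in these settings and 1.71 to 2.49 without 1 pool. miR-29a against miR-29c ran from -3.53 to -2.06 over its 10 alternatives. Pairing of wells and the chip median leave these differences as they are by construction.

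With the replicate block for the pool number, 66 assays passed, miR-29b was at 2.90 (limma adjusted p = 0.0382) and miR-29a and miR-29c did not pass, at -1.99 and 0.80. That fit also gave the 3 members a common SE, 1.14 log2 units, drawn from all assays together. Same-numbered pools' deviations correlated at 0.074, and the labels do not say that numbers pair pools.

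The call of miR-29b# was lost with raw Ct (-5.42), the panel mean (-3.11), the chip median (-3.91), an ordinary linear model (-3.54) and without 3 of the pools in turn (-3.86 to -2.996 over all 4). A Ct limit of 24 leaves no value for miR-29a# or miR-29b#, and the demand for a Ct in both wells leaves none for miR-29b#.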
